A study of Mus musculus with 8 samples.

Results

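The transcripts described here are those with ribosome footprints and mRNA both well counted in wild-type (WT) mouse forebrain of E14.5 embryos. They were chosen as the IDs with 20 or more read counts in each of the 4 WT libraries, which kept 9962 of the 14801 IDs listed in both the footprint and the mRNA table. The series holds 8 libraries in 4 groups of 2: footprints and polyA-selected mRNA from forebrains of WT embryos and of embryos with Elp3 conditionally deleted in progenitors of the cortex (Elp3cKO). Elp3cKO forebrains therefore also hold cells outside that lineage. All 8 libraries are from the same embryonic day. Elp3 encodes the catalytic subunit of Elongator, which modifies tRNA wobble uridines, and it is not targeted in the WT embryos. The Cre driver and the strain are not stated in the labels. Nothing says whether replicates are separate embryos or pools, so the p-values may reflect technical spread alone.

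A translating ribosome shields a short stretch of mRNA from RNase, and sequencing these footprints counts the ribosomes on each mRNA. Dividing footprints by mRNA gives the translational efficiency, the ribosome load per mRNA relative to other transcripts. Initiation is usually the slow step of translation, and features of the 5' leader such as structure and upstream reading frames can lower the load, whereas slow elongation can raise it without more protein being made. The developing forebrain is a mix of dividing progenitors and new neurons, so each value is an average over cell types.

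Efficiency was taken here as the mean footprint CPM over the mean mRNA CPM of the WT libraries, where CPM is counts per 1000000 counts of the library. A value of 1 means that a transcript takes the same share of footprint reads as of mRNA reads, and not that it carries a set number of ribosomes. Both CPM values grow with the length of transcript counted, so length cancels in the ratio only as far as the counted lengths are alike in the 2 assays. Levels were not corrected for length, so abundant means high in CPM here. Total counts were 9146852 and 10082980 for WT footprint replicates 1 and 2, and 4297830 and 2998847 for WT mRNA replicates 1 and 2. The files pair no ID with a gene name (0 of 16365 IDs matched the gene tables), so markers of the forebrain were not examined and the members are described as a population, with 4 of them given by ID.

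The minimum of 20 counts acted mainly through the mRNA libraries. Of the IDs in both tables, 1351 reached it in both footprint libraries but not in both mRNA libraries, 145 reached it in both mRNA libraries but not in both footprint libraries, and 3343 reached it in neither pair. The kept transcripts held 98.6% of the reads in each WT footprint library and 98.8% and 98.9% in the mRNA libraries. Of the 1351, 1345 had an mRNA count, with a median log2 efficiency of 0.82 (5th to 95th percentile -0.66 to 2.67), and 180 of them lay above an efficiency of 4, against 104 of the 9962 kept. The other 6 had no mRNA count in either library, where 3 counts would be 0.698 and 1.00 CPM. Of the 145, 142 had a footprint count, with a median log2 efficiency of -2.14, and 81 of them lay below a log2 efficiency of -2, against 315 of those kept. The efficiencies of the 3343 were not computed. Just inside the minimum, the 73 transcripts with a lowest count of 20 had a median log2 efficiency of 0.20 (range -3.52 to 2.41). Just outside it, the 76 with a lowest count of 19 had a median of 0.21 (range -2.43 to 2.86).

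Efficiency varied widely between transcripts. The median was 0.944, the 5th and 95th percentiles were 0.298 and 2.75, a 9.25-fold range, and the extremes were 0.0404 and 9.17. On the log2 scale the SD was 0.98. Of the 9962 transcripts, 6923 (69.5%) lay within 2-fold of the median and 4509 (45.3%) within 1.5-fold. Among the kept transcripts the low end reached further than the high end. Of these, 259 lay over 4-fold below the median and 139 over 4-fold above it, together 398. The 1st and 99th percentiles lay 2.42 and 2.09 log2 units from the median. Among IDs well counted in 1 assay only, the minimum left out 180 above an efficiency of 4 and 81 below a log2 efficiency of -2. The asymmetry is thus not shown to hold without the minimum.

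**Figure D1:**
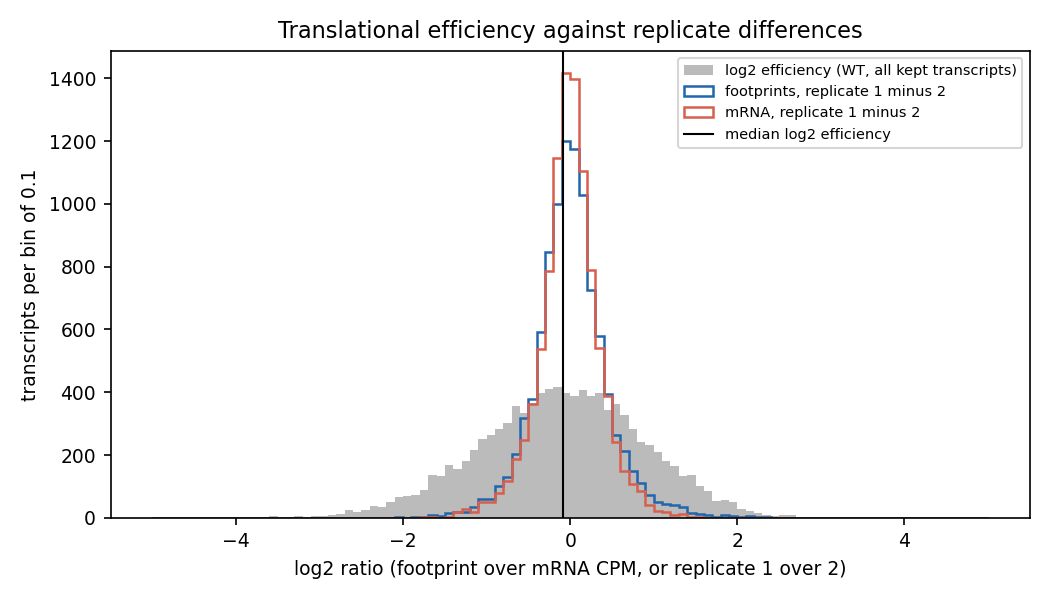
Histograms of log2 efficiency in WT (grey, footprint over mRNA CPM) and of the log2 difference between replicates 1 and 2 in footprints (blue) and in mRNA (red), for 9962 transcripts in bins of 0.1. The efficiencies (SD 0.98) spread more widely than either set of replicate differences (SD 0.45 and 0.37).

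The spread of efficiencies was larger than the spread between replicates. Log2 CPM of replicates 1 and 2 differed with an SD of 0.45 in footprints and 0.37 in mRNA, where counting alone would give 0.14 and 0.20, and Pearson's r across transcripts was 0.97 in both assays. Replicates lay within 1.5-fold of each other for 84.6% of transcripts in footprints and 89.2% in mRNA, and they differed by over 4-fold in 20 and 0 transcripts. Of those 20, 15 were lower in footprint replicate 2. From these differences the error of a log2 efficiency averaged over replicates was 0.29 (SD), and 91.3% of the variance of log2 efficiency lay beyond it. Errors of a transcript that repeat in both replicates do not show in these differences, so the 91.3% can include them. Efficiencies computed from separate libraries, footprint replicate 1 over mRNA replicate 1 and footprint replicate 2 over mRNA replicate 2, had r = 0.84 across transcripts, and with the mRNA libraries exchanged r = 0.85. These correlations are descriptions across transcripts, which are not independent replicates.

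Error shrank with abundance while the spread of efficiency did not. In the decile of lowest mRNA level (5.66 to 12.0 CPM) the error was 0.43 and the SD of log2 efficiency 0.88, so that 76.2% of the variance lay beyond replicate noise. In the decile of highest mRNA level (214 to 9572 CPM) the error was 0.13 and the SD 0.96, leaving 98.3%. In each of the 10 deciles footprint replicates differed more than mRNA replicates did, although footprints were counted more deeply: the SD of the replicate difference went from 0.67 to 0.21 in footprints and from 0.53 to 0.14 in mRNA between these deciles. Within each decile of mRNA level, footprint CPM ranged between 7.66-fold and 16.9-fold from the 5th to the 95th percentile. In the fifth decile, for example, where the median mRNA level was 38.2 CPM, footprints went from 11.3 to 108 CPM.

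**Figure D2:**
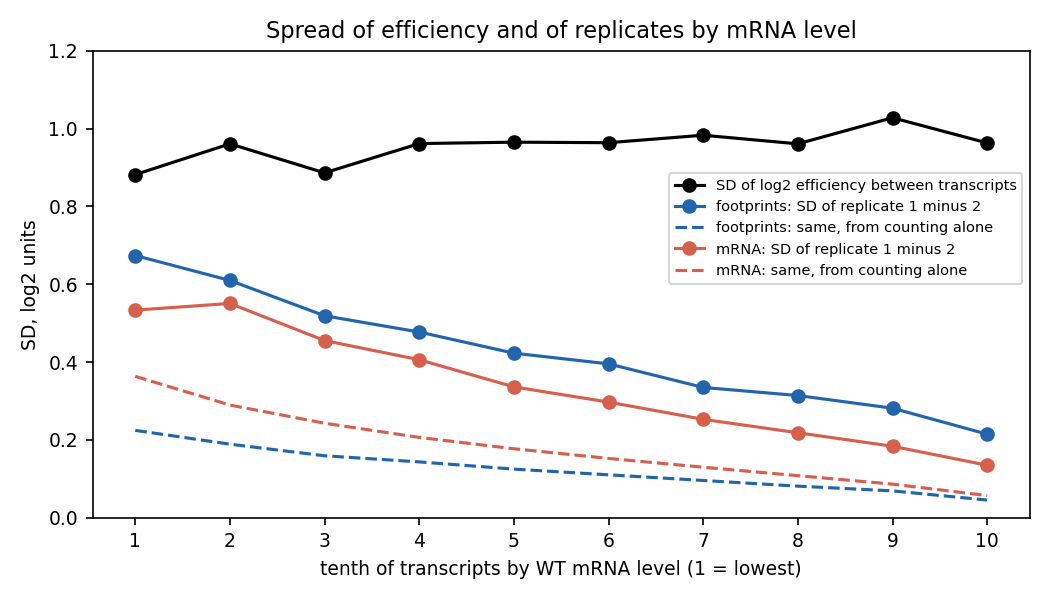
SD in log2 units for each decile of transcripts by WT mRNA level: log2 efficiency between transcripts (black), the difference between replicates in footprints (blue) and mRNA (red), and the part that counting alone would give (dashed). The black line stays between 0.88 and 1.03 while both replicate lines fall toward the abundant transcripts.

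WT footprint replicate 2 was the deepest library, yet more IDs fell short of the minimum in it alone than in replicate 1 alone, so the main values were also computed without it. With footprint replicate 1 alone, the SD of log2 efficiency was 0.99 and the 5th to 95th percentile range 3.25 log2 units, against 0.98 and 3.21 with both. With footprint replicate 2 alone they were 1.03 and 3.38. Among IDs that reached 20 counts in the other 3 WT libraries, 72 fell short only in footprint replicate 2, 5 of them with a count of 0, and 40 fell short only in footprint replicate 1, none of them at 0. The label of WT footprint replicate 1 alone spells out a linker with random bases. Whether the libraries were made differently is not given in the sources used here.

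Efficiency of single transcripts was tested as footprints against mRNA over the 4 WT libraries (quasi-likelihood test of edgeR with libraries scaled by their totals; a Benjamini-Hochberg adjusted p under 0.05 counts as called). Of the 9962 transcripts, 2483 (24.9%) took a higher share of footprints than of mRNA and 2972 (29.8%) a lower share. Together these are 5455 transcripts, or 54.8%. Over 2-fold, 1272 (12.8%) were higher and 1766 (17.7%) lower. Higher calls had a median log2 fold change of 1.01 and lower calls one of -1.12. The remaining 4507 did not pass, which does not show that their efficiency was 1. Without any model, both footprint CPM values lay above both mRNA CPM values in 3542 transcripts (35.6%) and below both in 4140 (41.6%), together 7682 (77.1%), and 2231 of these did not pass the test. With 2 libraries per assay, such full separation can often arise without a true difference, so the 77.1% is not a share of differing transcripts. Because the members are all the transcripts tested, these percentages are themselves the background.

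The balance of higher and lower calls depends on where an efficiency of 1 is set. TMM scaling, which centres most transcripts, moved the median log2 efficiency up by 0.10, to 0.02, and gave 2823 higher and 2631 lower calls. Since this scaling moves all efficiencies together, it adds higher calls and removes lower ones without turning any. Leaving out an mRNA library, so that the single one left is assumed to vary like the others, gave 2037 to 2054 higher and 2378 to 2399 lower calls. Without footprint replicate 2 there were 2473 and 3004.

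The transcript uc007ezl.1 had the highest efficiency of the 9962 members. Among IDs short of 20 mRNA counts, log2 efficiencies reached 5.89, with few mRNA counts behind them. Its footprints were at 435 and 408 CPM in WT replicates 1 and 2, and its mRNA at 44.0 and 48.0 CPM. The mRNA level thus lay near the middle of the members (51.4th percentile) and the footprint level near the top (96.4th percentile), and the 2 assays did not overlap. Its efficiency was 9.17 (log2 fold change 3.20 with an SE of 0.14; edgeR adjusted p = 3.21e-12), and the ratio of its pooled counts was 9.23 (exact 95% interval 8.27 to 10.3, counting error only).

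The transcript uc009uct.1 ranked 7th from the top and was the second of the 2 highest that had at least 100 counts in every WT library. Its footprints were at 220 and 223 CPM and its mRNA at 37.5 and 34.0 CPM, so replicates of each assay lay close together and the assays far apart. Its efficiency was 6.21 (log2 fold change 2.63 with an SE of 0.16; edgeR adjusted p = 1.22e-10).

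At the other end, uc008mkx.1, which ranked 5th from the bottom in efficiency, was an abundant mRNA with few footprints. Its mRNA was at 306 and 296 CPM, in the 93.7th percentile, while its footprints were at 21.6 and 22.8 CPM, in the 28.7th percentile. Its efficiency was 0.0739 (log2 fold change -3.76 with an SE of 0.15; edgeR adjusted p = 1.2e-12), which is 13.5-fold below 1. The transcript uc008ddu.2, 7th from the bottom, had mRNA at 196 and 195 CPM and footprints at 17.8 and 13.6 CPM, again with no overlap between the assays. Its efficiency was 0.0803 (log2 fold change -3.64 with an SE of 0.18; edgeR adjusted p = 1.67e-11). All 4 were picked for extreme WT efficiency among called transcripts, so their gaps between assays and small adjusted p are descriptions that follow from the choice. Reads shared with overlapping or near-identical genes are uncertain for all 4, since how such reads were counted is not given.

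**Figure D3:**
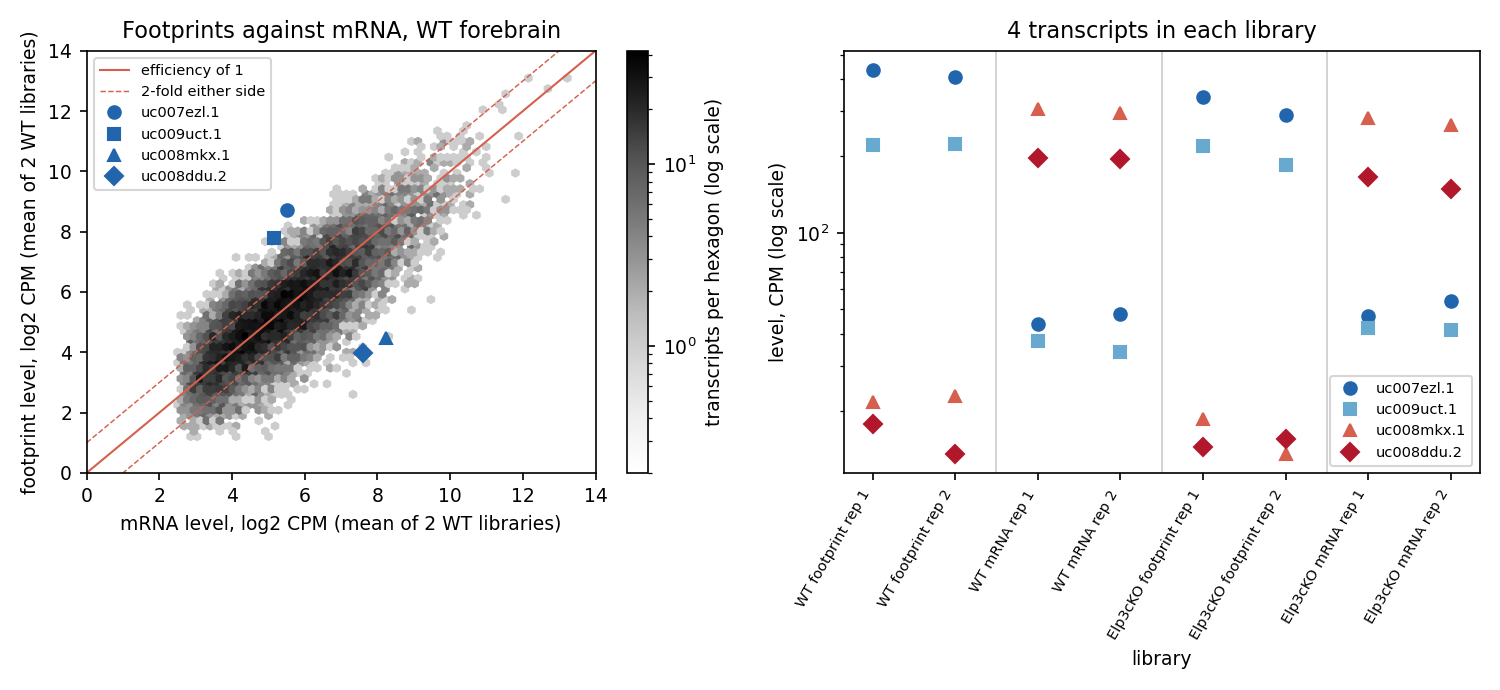
Left, footprint against mRNA level of 9962 transcripts (log2 CPM, mean of 2 WT libraries each; darker hexagons hold more transcripts), with lines at an efficiency of 1 and 2-fold either side and 4 transcripts marked. Right, CPM of the same 4 transcripts in each of the 8 libraries on a log axis: uc007ezl.1 and uc009uct.1 have more footprint than mRNA CPM in both genotypes, and uc008mkx.1 and uc008ddu.2 fewer.

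Transcripts with more mRNA carried more footprints. Pearson's r of log2 footprint and log2 mRNA CPM was 0.82 and Spearman's rho 0.81, so that 67.8% of the variance of log2 footprint level was shared with mRNA level. The other 32.2% was not shared with mRNA level and includes error. It is not the whole of efficiency, since log2 efficiency itself had r = -0.21 with log2 mRNA level in the same libraries. Taking replicate noise into account raised r only from 0.81, the mean over the 4 pairings of single libraries, to 0.84. Footprint reads were slightly more concentrated than mRNA reads: 925 and 935 transcripts held 50% of the reads in the footprint libraries, against 1032 and 1031 in the mRNA libraries. The 100 most abundant transcripts held 17.7% and 17.9% of footprint reads and 14.9% and 15.1% of mRNA reads.

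Efficiency reordered the most abundant transcripts. Of the 100 with the highest footprint level, 49 were also among the 100 with the highest mRNA level, whereas replicates shared 89 in footprints and 94 in mRNA. The 51 that were in the top 100 by footprints only ranked 103rd to 695th by mRNA, and their log2 efficiencies ran from 0.50 to 2.15. The 51 in the top 100 by mRNA only ranked as low as 1396th by footprints, with log2 efficiencies from -2.48 to -0.06. The sign of these efficiencies follows from how the lists were picked and is given as a description.

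Efficiency was lower for mRNAs of higher CPM. This level mixes abundance with counted length, and the part of length in the trend was not tested. The median log2 efficiency fell at each of the 9 steps from the lowest to the highest decile of mRNA level, from 0.20 to -0.46, an efficiency of 1.15 against 0.726. The interquartile range within a decile was wider than this trend, from -0.38 to 0.86 in the lowest and from -1.10 to 0.22 in the highest. The mRNA level is also the denominator of efficiency, so the trend was computed with separate libraries. This separates only the error that the 2 mRNA libraries do not share. Both measure the same level, so level and efficiency stay linked in each version. With the level from mRNA replicate 1 and efficiency from replicate 2, the difference between the highest and lowest deciles was -0.56, and with the replicates exchanged it was -0.62, against -0.66 with both. In these versions the 3 lowest deciles did not fall in order (0.10, 0.11 and 0.15, and 0.17, 0.20 and 0.13). The same held when the minimum was set on mRNA counts only, which keeps transcripts with few footprints (0.09, 0.09 and 0.11, difference -0.56). The fall over the higher deciles was thus present in each version, and a fall in order within the 3 lowest in the first of these 4.

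**Figure D4:**
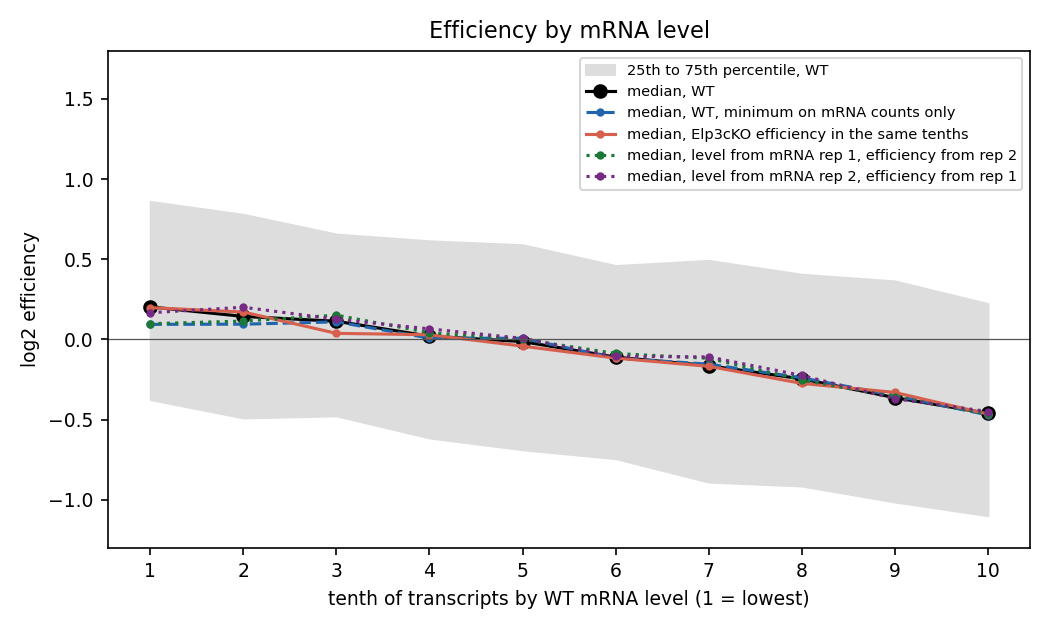
Median log2 efficiency for each decile of transcripts by WT mRNA level, with the interquartile range in WT (grey). The black line uses both WT mRNA libraries for level and efficiency and falls from 0.20 to -0.46; the dotted lines take level and efficiency from different mRNA libraries, the dashed line sets the count minimum on mRNA only, and the red line is the efficiency in the Elp3cKO libraries.

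The direction of the trend depended on the axis used to order the transcripts. Ordered by footprint level instead, the median log2 efficiency was higher in more abundant transcripts, from -0.91 in the lowest decile to 0.48 in the highest. With level and efficiency from different footprint libraries it went from -0.83 to 0.44 and from -0.76 to 0.50. The least squares slope of log2 footprints on log2 mRNA was 0.87, below proportionality, and the reduced major axis slope, which treats both assays alike, was 1.05. Whether footprints grew less or more than in proportion to mRNA thus differed between the 2 lines.

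Lower calls were more frequent among abundant mRNAs, and higher calls stayed near one level. Higher calls made up between 22.3% and 26.7% of each decile of mRNA level, while lower calls went from 6.62% in the lowest decile to 58.4% in the highest. The error of a log2 efficiency fell from 0.43 to 0.13 over the same deciles. Its part in the rise of lower calls was not tested.

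The Elp3cKO libraries, which did not enter the choice of members, gave close to the same order of efficiencies. Across the 9962 transcripts, log2 efficiency in WT and Elp3cKO had r = 0.91 (rho = 0.91). The difference between the genotypes had an SD of 0.41, where replicate differences alone would give 0.41, and 282 transcripts (2.83%) differed by over 2-fold. The median log2 efficiency was -0.08 in WT and -0.09 in Elp3cKO. Without WT footprint replicate 2, r was 0.91, and with replicate 2 alone it was 0.86.

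The same test in the Elp3cKO libraries called 2602 transcripts (26.1%) higher and 3160 (31.7%) lower. Of the 2483 higher calls in WT, 2128 (85.7%, or 81.8% of the Elp3cKO list) were called higher in Elp3cKO and 2 were called lower. Of the 2972 lower calls, 2584 (86.9%, or 81.8% of the Elp3cKO list) were called lower and 0 higher. The extremes were found again: of the 139 transcripts over 4-fold above the median in WT, all 139 lay above the Elp3cKO median and 138 over 2-fold above it, and of the 259 over 4-fold below, all 259 lay below and 257 over 2-fold below. Their median distance from the median of all transcripts went from 2.20 to 1.95 and from -2.30 to -2.18 log2 units. Since the WT values chose them, the smaller Elp3cKO distances are not read as a genotype difference. By definition, as many of all transcripts lay above the Elp3cKO median as below it. In WT, 69.5% of all transcripts lay within 2-fold of the median, and the same share in Elp3cKO was not computed.

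The order of efficiencies was also compared by decile, of which the middle ones span narrower ranges than those at the ends, so shares kept are not comparable between them. Of the lowest decile by efficiency in WT, 72.3% were in the lowest decile in Elp3cKO, and of the highest, 71.0% were in the highest. In the other deciles between 28.8% and 44.1% kept their decile, but 72.3% to 87.2% stayed in it or moved to a neighbouring one. The trend with mRNA level was also found again: over deciles set by WT mRNA level, the median log2 efficiency in Elp3cKO fell at each step, from 0.20 to -0.47.

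The 4 transcripts given by ID kept their side in Elp3cKO. Footprints of uc007ezl.1 were at 341 and 290 CPM and its mRNA at 47.1 and 53.9 CPM, an efficiency of 6.25. The efficiency of uc009uct.1 was 4.81, that of uc008mkx.1 0.0590 and that of uc008ddu.2 0.0955. Since the WT values chose these 4, their distances from WT are not read as a genotype difference. The log2 differences in efficiency fitted by edgeR over all 8 libraries (Elp3cKO minus WT), which need not equal those of the mean CPM ratios, were -0.57, -0.36, -0.28 and 0.25 in this order, and none passed the test of the interaction (adjusted p = 0.828, 0.89, 0.901 and 0.923), which does not show that they are equal.

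**Figure D5:**
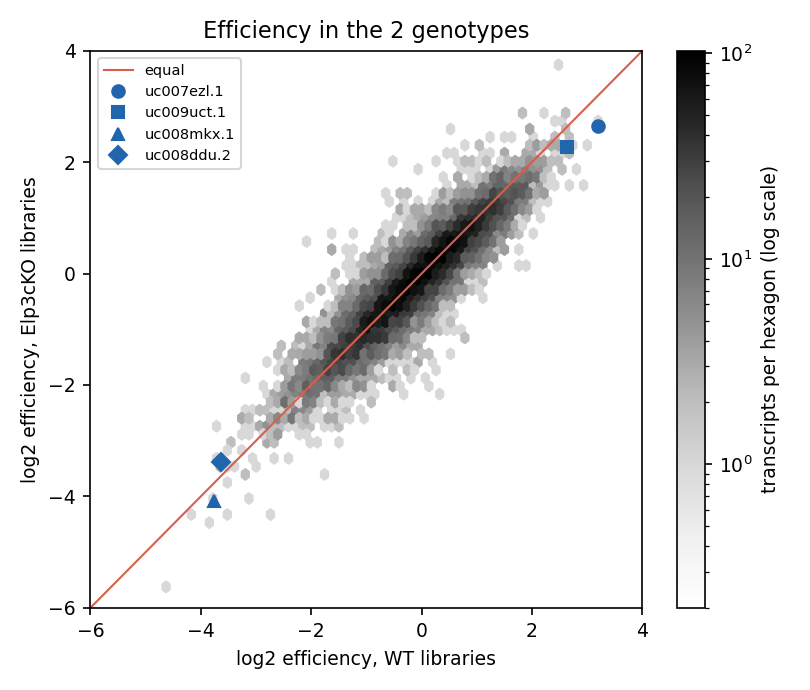
Log2 efficiency of 9962 transcripts in the WT (x axis) and Elp3cKO libraries (y axis), with the line of equal values and the 4 transcripts given by ID. Points lie along the line (r = 0.91), and the marked transcripts sit at the same ends in both genotypes.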

How the data were processed

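The authors deposited unnormalised read counts for each UCSC known gene ID, with footprints and mRNA in separate tables, per the file headers. Tools named in the submitters' processing notes are CASAVA 1.8 and Bowtie 1.0.0, with mm10 as the build. How reads were assigned to transcripts, whether strand was used and whether PCR copies were removed is not given in the sources used here, and intervals cover counting error only. Footprints (28 to 32 nt, per the labels' protocols) came from monosome fractions of cycloheximide-containing extracts, and mRNA was polyA-selected, so RNAs without a polyA tail are under-counted in the denominator.

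Tables were joined on ID and scaled by column totals. Footprints were tested against mRNA with edgeR 4.0.16 in R 4.3.3, with 1 dispersion per transcript shared by both assays, although footprints varied more. Standard errors were computed as the fold change divided by the square root of F. In 5 simulations of WT footprints against WT mRNA, 200 of 9962 transcripts were changed and both assays had the same dispersion. The test called 68.7% of 2-fold and 98.5% of 4-fold changes there. In the data 54.8% were called and footprints varied more, so these rates do not give the sensitivity of the reported test. The IDs given are the 2 highest and 2 lowest in efficiency among called transcripts with at least 100 counts in each WT library. Gene lists and markers were not tested for lack of names. The members, lists and rules were chosen with earlier results of these data known. Alternatives were DESeq2 1.42.0, limma 3.58.1, other scalings and minimums, a replicate block and leaving out each library.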

Additional observations from a re-analysis of the deposited data

How the results depend on the processing

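Of 90 recomputed values, 62 stayed within a set limit, 28 moved and 0 reversed. The limit was the spread over library pairings or, for counts of calls, 1.5 times the reported count. No alternative moved a count of calls by 1.5 times, so all 28 that moved were other values, held to the spread over pairings. Counts of calls, SDs, ranges and shares have no sign that could reverse. The larger side of the WT calls did change with scaling. It was 2483 higher and 2972 lower as reported, 2823 and 2631 with TMM, 2722 and 2707 with DESeq2 size factors, and 2780 and 2693 with upper-quartile scaling. Depth limits the mRNA side most, where 3 counts are 1.00 CPM in WT replicate 2. The cause of the moves below was not tested.

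With a minimum of 50 counts the share of variance beyond replicate noise was 93.9%, r of footprints and mRNA 0.78, and the difference of median log2 efficiency between the top and bottom quartiles of mRNA level -0.52, against 91.3%, 0.82 and -0.55 as reported. With a minimum of 5 counts the SD of log2 efficiency was 1.02, its 5th to 95th percentile range 3.31, the share 86.2%, r 0.86, the slope 0.88 and r with Elp3cKO efficiency 0.86. With the minimum on mRNA counts only (0.5 counts added to each count) the SD was 1.02, the range 3.30, the share 89.9%, the slope 0.90 and the quartile difference -0.48. With the level from mRNA replicate 1 and efficiency from replicate 2 the slope was 0.89 and the quartile difference -0.50. The reduced major axis slope was 1.05 and Spearman's rho of footprints and mRNA 0.81.

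Leaving out 1 library gave an SD of 0.99 to 1.03, a range of 3.25 to 3.38, r of 0.81 to 0.82, a slope of 0.85 to 0.88, a quartile difference of -0.62 to -0.53 and r with Elp3cKO of 0.86 to 0.91. Calls in WT were then 2037 to 2597 higher and 2378 to 3135 lower, and in Elp3cKO 2100 to 2674 and 2493 to 3248.

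Replicate numbers were not taken to pair the libraries: the differences between replicates 1 and 2 had r = -0.04 between the WT assays, and no label links a number to a litter or batch. With the replicate block, WT calls were 2468 higher and 3016 lower, and Elp3cKO calls 2626 and 3231.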
